A study of Drosophila melanogaster with 6 samples.

Results

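The genes described here are autosomal genes with a short listed transcript that lies apart from the other transcripts listed. Length and distance below are those of the listed transcript, so a gene with other transcripts can be longer than its entry. They are 438 of the 5528 transcripts in the authors' deposited table. A member was under 20 kb from start to end, was not on chrX or chr4, and had no other listed gene, on either strand, within 10 kb. The members stand for 437 genes, since mtgo was listed as 2 transcripts that both met the rule. The nearest listed entry of 1 of them was the other. They were 3213 bp long at the median (range 804 to 19782), and the nearest other listed gene lay 20198 bp away at the median (range 10030 to 1587602). Over all listed transcripts the median length was 2518 bp and the median distance 475 bp.

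The data come from PRO-seq in S2 cells, which were derived from Drosophila embryos and resemble blood cells. PRO-seq labels nascent RNA in isolated nuclei and so maps engaged RNA polymerase II (Pol II) on each strand. The 6 libraries were 2 biological replicates of each of 3 treatments: double-stranded RNA of 668 bp against BEAF, of 493 bp against Pbro, and of 835 bp against bacterial LacZ as the control. Cells at 25°C received 150 μg of it at the start and again after 2.5 days, and nuclei were taken another 2.5 days later. Knockdown was judged by Western blot of the same cell line. The LacZ libraries are the shared control of all comparisons.

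BEAF is a DNA-binding insulator protein that sits near the start sites of many closely spaced housekeeping genes. Pbro, polybromo, is a signature subunit of PBAP, a SWI/SNF-class complex that moves nucleosomes and is known to work with GAGA factor at regulated promoters. At such promoters Pol II often pauses shortly after initiation, which gives a promoter-proximal peak of PRO-seq signal that is separate from the elongating Pol II in the gene body. In the compact fly genome, developmental regulators commonly have long flanking regions with enhancers, whereas housekeeping genes sit close together.

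Both knockdowns were set against LacZ RNAi at the promoter, in a promoter-proximal window, and over the gene body, which gives 4 comparisons. All values below are log2 fold changes of knockdown over LacZ RNAi and adjusted p-values from the authors' deposited table, which was made with DESeq2. Down and up are calls with an adjusted p under 0.05, and unchanged genes are those the table lists with a value over 0.9. Genes in between are not listed in that comparison and are left out of its listed shares. A percentage of listed genes therefore overstates the share of all transcribed genes that were called. Such a gene still counts among the transcripts and in the distances where another comparison lists it. The sheets carry no value per library, no standard error and no read count. The spread between replicates therefore enters only through the adjusted p of each gene, no level can be given, and no test of a difference between sets of genes was made. The levels of blood cell markers could not be checked for the same reason, and none of 11 listed hemocyte markers was a member.

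Isolation was read from listed genes and not from the annotated genome. Of the 416 members found in a Release 6 name table, 369 (88.7%) had another protein-coding gene within 10 kb there, with a median of 3, and 47 had none. Genes of known clusters are among them, such as GstE2 and E(spl)m2-BFM, which have other cluster genes within 10 kb that were not listed. The study reports uniquely mapped reads, so reads shared by near-identical copies may be missing. How similar these cluster genes are was not checked, and their values may be less certain. The members were spread evenly over the arms, with 99 on 2L, 110 on 2R, 111 on 3L and 107 on 3R. The other 11 were on heterochromatic or unplaced scaffolds, of which 1 was XHet and 1 was U (not excluded by the rule), and none of these 11 was called in any comparison. The nearest listed gene was itself a member for 144, and 223 were on the plus strand.

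Of the 438 members, 110 (25.1%) were called in at least 1 comparison and 328 in none, against 720 (13.0%) called of all 5528 transcripts. After Pbro RNAi 94 (21.5%) were down in at least 1 region and 5 (1.14%) were up, against 8.95% and 1.56% of all transcripts. After BEAF RNAi 20 (4.57%) were called in either direction, against 3.22%. Only 51 were listed in all 4 comparisons, 117 in 3, 168 in 2 and 102 in 1. A member listed in 1 comparison and called there is in the set only through that call.

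**Figure D1:**
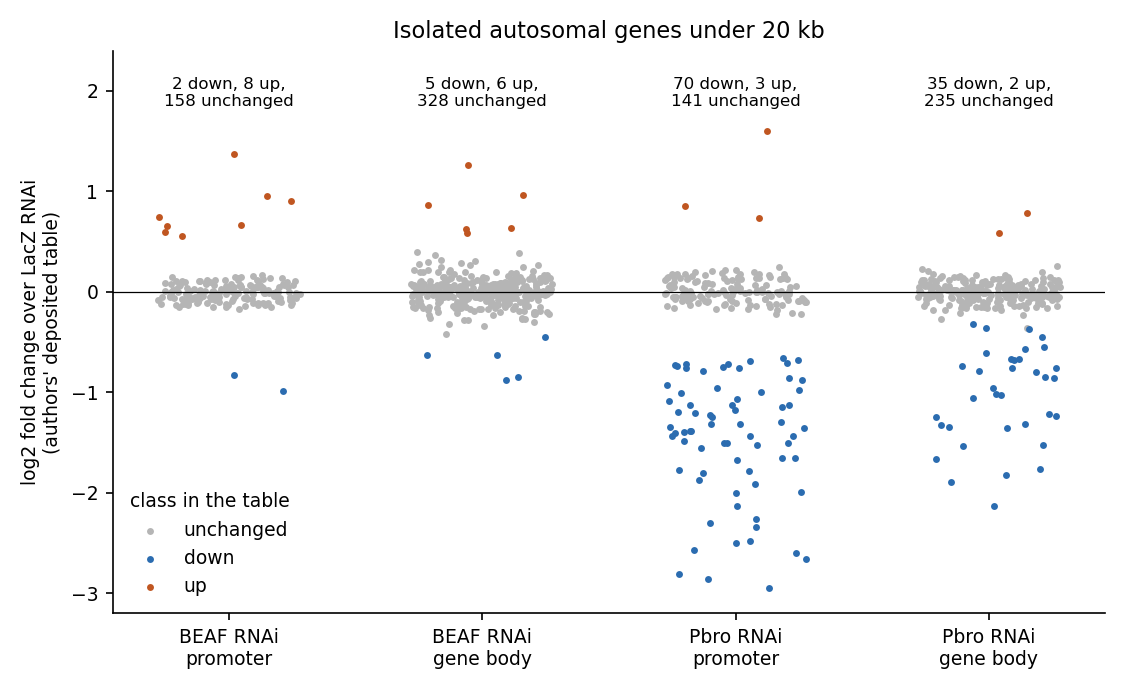
Log2 fold change over LacZ RNAi (y axis) of each listed member in the 4 comparisons (x axis), with points spread sideways for visibility, called genes in blue (down) or orange (up) and unchanged genes in grey. The Pbro RNAi promoter column holds 70 members down against 3 up, while the BEAF RNAi promoter column holds 2 down against 8 up.

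The promoter-proximal window after Pbro RNAi was where most members were called. Of the 214 members listed there, 70 (32.7%) were down and 3 (1.40%) were up, against 13.2% down and 1.87% up of all 2510 listed genes. The members that were down had a median of -1.37 (range -2.95 to -0.65), and 53 of the 70 lost at least 2-fold. Over all 332 genes called down the median was -1.26, close to that of the members. The median over all listed members was -0.07, against -0.01 over all listed genes. The 4 main arms gave similar shares, 27.7% on 2L (13 of 47), 35.0% on 2R (21 of 60), 34.7% on 3L (17 of 49) and 36.5% on 3R (19 of 52), beside 14.2%, 17.0%, 13.6% and 12.3% of all genes listed on those arms.

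The size of this share depends on what is counted. Among the 114 members listed in both regions 10.5% were down at the promoter, against 5.45% of the 1781 genes of any kind listed in both. With all 438 members as the denominator, listed at the promoter or not, the share was 16%, against 6.01% of all 5528 transcripts. Many of the members down here were listed only through this call. Among them were Dll, skl, rpr, wg, rk, Awh, Mdr65, comm, comm2 and CG9416, the member with the lowest value. These denominators are therefore not independent of the calls counted. When isolation was read only from genes listed in the Pbro promoter comparison, 581 genes met the rule and 19.8% of them were down. Among the 23 listed members with no annotated coding gene within 10 kb, 5 (21.7%) were down, a lower share than the 34% (64 of 188) of members that do have one. The share of the members was above that of all listed genes under each of these settings, by amounts that were not tested.

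Wnt4 had the lowest adjusted p of the members at this promoter window. It encodes a secreted Wnt ligand (dm3 chr2L:7258348-7277168, minus strand) and was at -2.81 (adjusted p = 5.815e-34). wg, the Wingless ligand gene beside it (chr2L:7307161-7308940, plus strand), was at -0.76 with an adjusted p much nearer the threshold (0.01948). The pair are divergently transcribed, 29992 bp apart, and both promoters fell. Ndae1, an anion exchanger gene 17851 bp from Wnt4 on the other side and not a member, was also down, at -2.57. Neither Wnt gene was listed in the gene body, and Wnt4 was listed as unchanged at the promoter after BEAF RNAi (0.01).

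Among the transcription factors, Dll (Distal-less, a homeodomain factor of limb development, chr2R:20702344-20722125) was at -2.86 (adjusted p = 2.613e-32), and it was the longest member. Kr (Krüppel, a gap gene) was at -2.003 at the promoter after Pbro RNAi and at -0.06, listed as unchanged, after BEAF RNAi. SoxN, a Sox-family factor of the nervous system, was at -1.44, and Awh (Arrowhead, a LIM homeodomain factor) at -1.51. Of 6 members on a list of homeodomain factors, which is not a complete one, 4 were listed here and 2 were down. Over all genes on that list 5 of 8 were down here. Of 8 members on a list of segmentation and other patterning factors 5 were listed and 2 were down, with a median of -0.01 over the listed members. Over all genes on that list 4 of 9 were down here.

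E(spl)m2-BFM, a Bearded-family gene of the Enhancer of split cluster that Notch signalling switches on, was at -2.34 at the promoter (adjusted p = 8.037e-32) and at -1.35 in the body. It was listed as unchanged after BEAF RNAi in both regions (-0.02 and 0.29). CG7720, on the list of solute transporters, was at -2.51 at the promoter, SP1173 at -2.31 and CG9416 at -2.95, the lowest value of any member. Neither SP1173 nor CG9416 was listed in the gene body.

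The cell death activators rpr (reaper) and skl (sickle), which block inhibitors of apoptosis, were both down at the promoter, at -0.73 (adjusted p = 0.001916) and -0.96 (adjusted p = 0.008156). They are each other's neighbours on 3L, 40103 bp apart. hid, another activator of apoptosis on 3L, was listed as unchanged at the promoter after Pbro RNAi (-0.02) and was up there after BEAF RNAi (0.56, adjusted p = 0.04936). Of 9 members on a list of immune genes, 6 were listed at the promoter after Pbro RNAi and 2 were down. These were Tl, the Toll receptor, at -0.69, and PGRP-LB, an amidase that degrades peptidoglycan, at -1.18. Over all genes on that list 3 of 13 were down there. Of 8 members on a list of cytochrome P450, UGT and GST genes, 2 were listed there and both were down, GstE2 at -1.66 and Cyp6a13 at -1.43. Over all genes on that list, isolated or not, 15 of 26 were down there. Ldh, lactate dehydrogenase, was at -0.88, and its neighbour Mdr65, an ABC transporter, at -1.36.

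The few members that rose at the promoter after Pbro RNAi were Vha100-4, which encodes a subunit of the vacuolar proton pump (1.60, adjusted p = 1.641e-06), luna, a Krüppel-like factor (0.86, adjusted p = 0.01379), and hng3 (0.73, adjusted p = 0.02132). All 3 were listed as unchanged in the gene body after BEAF RNAi, with values from -0.42 to -0.01. Each lay within 20 kb of its nearest listed gene, so with a distance of 20 kb no listed member was up.

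No member was called on the lists of ribosomal proteins, translation factors, and replication and cell cycle genes. These members were 2 of 49 listed cytoplasmic ribosomal protein genes, 1 of 37 mitochondrial ones, 2 of 17 translation factors and 3 of 40 replication and cell cycle genes, beside 438 of 5528 over all transcripts. Among them were RpS15, RpL15, mRpS5, eEF1beta and Mcm7. At the promoter after Pbro RNAi only 1 of these translation factors and 2 of these replication and cell cycle genes were listed. None of the ribosomal protein members was listed there, so few of these members could be read. Calls were also few over all genes on these lists. In the same order 0 of 29, 0 of 19, 0 of 12 and 0 of 22 were down at that promoter, and 1 translation factor was up. In the gene body after Pbro RNAi 0 of 45, 0 of 32, 1 of 17 and 0 of 27 were down and none was up. No member was among the 23 proteasome genes, the 17 RNA processing genes or the 17 heat shock and stress genes on the lists. In all, 27 lists held 74 of the members.

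The promoter shares after Pbro RNAi were read along the distance to the nearest listed gene, over all autosomal genes under 20 kb. Where that gene overlapped, 4.55% of listed genes were down (10 of 220), and 7.39% where it lay within 1 kb (80 of 1082). The share was 24.3% at 1 to 5 kb (90 of 370) and 16% at 5 to 10 kb (19 of 119). Among the members it was 32.4% at 10 to 20 kb (35 of 108), 35.0% at 20 to 50 kb (28 of 80) and 26.9% over 50 kb (7 of 26). The shares did not increase at every step. The 2 widest steps were the one at 1 kb and the one at 10 kb, and only the second is the limit of the rule. In the gene body the corresponding shares were 1.81%, 3.14%, 7.79%, 10.6%, 13.1%, 13.6% and 9.38%.

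**Figure D2:**
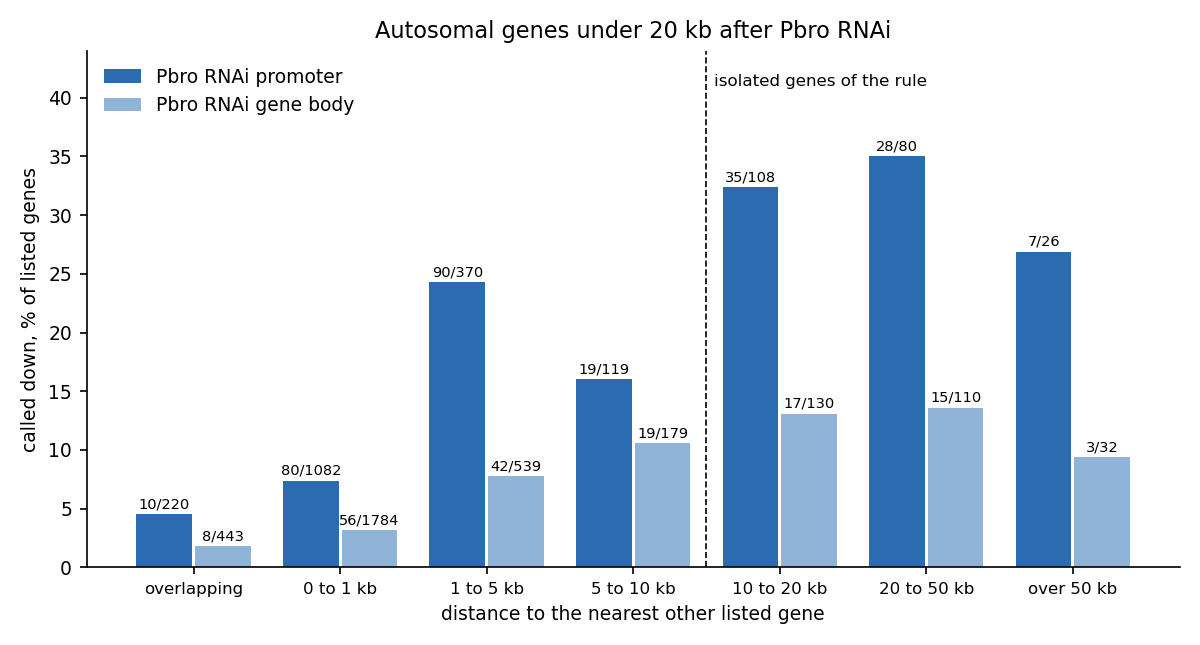
Percentage of listed autosomal genes under 20 kb that were called down after Pbro RNAi (y axis) in bins of distance to the nearest other listed gene (x axis), for the promoter (dark bars) and the gene body (light bars), with called over listed genes above each bar. The promoter share went from 7.39% at 0 to 1 kb to 24.3% at 1 to 5 kb, and the members, right of the dashed line, were between 26.9% and 35.0%.

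Read separately on each side of the gene, the distance on the 5′ side was read first. With a listed gene within 1 kb of the start, 5.29% of promoters were down, against 23.4% at 1 to 5 kb, 11.9% at 5 to 10 kb, 32.0% at 10 to 20 kb, 25.7% at 20 to 50 kb and 22.2% over 50 kb. On the 3′ side the shares were 7.96%, 13.5%, 15.9%, 19.3%, 21.7% and 17.8% in the same bins. Neither side kept rising over its whole range. Whether the 5′ and 3′ sides differ was not tested.

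Members were longer at the median (3213 bp) than autosomal genes under 20 kb with a listed gene within 10 kb (2288 bp), and length moved with the share as well. Of members under 2 kb 27.6% were down at the promoter (16 of 58), of those of 2 to 5 kb 30.9% (25 of 81), of those of 5 to 10 kb 32.6% (15 of 46) and of those of 10 to 20 kb 48.3% (14 of 29). Autosomal genes of the same lengths with a listed gene within 10 kb were at 7.25%, 10.9%, 16.5% and, for the longest, 29 of 110. The members were thus above genes of similar length in each of the 4 bins. Autosomal genes of 20 kb or more that met the same distance rule were at 40.0% (16 of 40), so a high share was not limited to short genes.

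**Figure D3:**
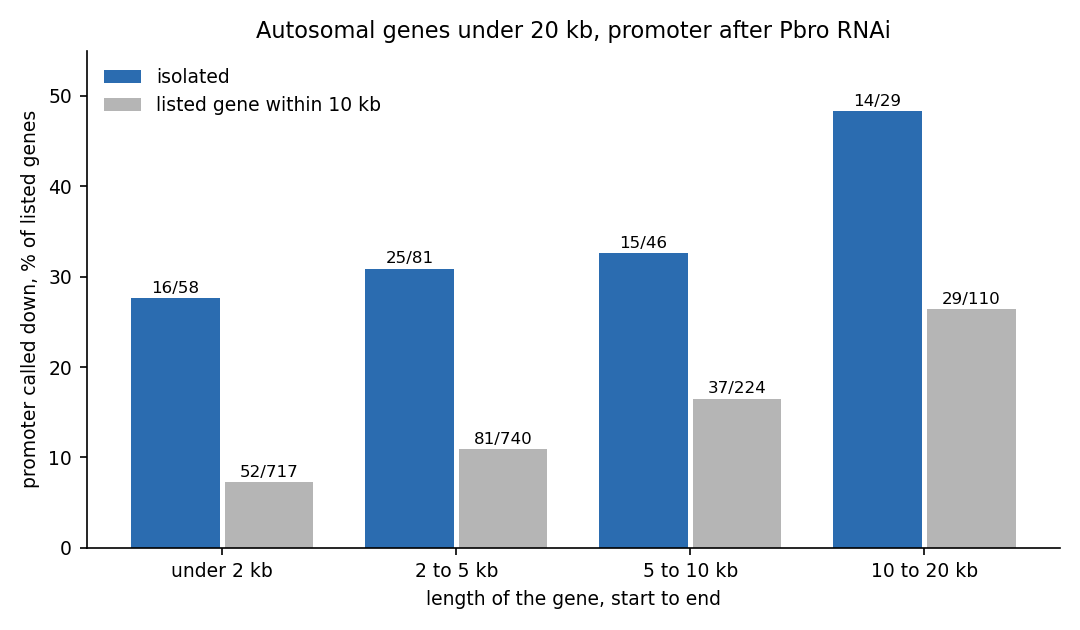
Percentage of listed autosomal genes called down at the promoter after Pbro RNAi (y axis) by gene length (x axis), for isolated genes (blue) and genes with a listed gene within 10 kb (grey), with called over listed genes above each bar. The isolated genes went from 27.6% to 48.3% and the others from 7.25% (52 of 717) to 29 of 110 genes.

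In the gene body after Pbro RNAi, 35 of 272 listed members (12.9%) were down and 2 (0.735%) were up, against 5.45% down and 1.09% up of all 4127 listed genes. The members that were down had a median of -0.96 (range -2.13 to -0.32), and 17 lost at least 2-fold. With all members as the denominator the share was 7.99%, against 4.07% of all transcripts. Here too members such as alpha-Est10, cas, Ret and tara were listed only through their call.

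The lowest adjusted p belonged to ttk (tramtrack, a zinc finger repressor, chr3R:27539591-27550549), at -1.25 (adjusted p = 8.081e-58). nvy (nervy, a corepressor of the ETO family) was at -1.77, so (sine oculis, a homeodomain factor of eye development) at -1.82, and odd (odd skipped, a pair-rule zinc finger gene) at -2.13. tsh (teashirt) was at -0.61. On the list of segmentation and other patterning factors all 4 listed members were down in the body, odd, so, tsh and ttk, with a median of -1.54. Over all genes on that list 7 of 11 were down. ptc, the Hedgehog receptor, was at -0.36 (adjusted p = 2.293e-05), and Eip75B, an ecdysone-induced nuclear receptor, at -0.85.

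Other members with a low adjusted p in the body were enzymes and a transporter. Oatp74D, which encodes an importer of ecdysone, was at -0.79 (adjusted p = 2.324e-10), alpha-Est10, a carboxylesterase, at -0.74, and Pld, phospholipase D, at -0.86. Of 7 members on a list of solute transporters, which does not hold every transporter, 5 were listed in the body, of which 2 were down, 1 was up and the others were unchanged. The one that rose was Oatp30B, of the same family as Oatp74D, at 0.78 (adjusted p = 0.01143). Over all genes on that list 6 of 19 were down in the body and 1 was up. CG31522 was the other member that rose, at 0.58 (adjusted p = 0.004841), while its nearest listed gene CG31523, 18434 bp away, was down at -0.99.

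The values of promoter and body were read from shared libraries, and few members could be read in both. Of the 70 members down at the promoter, 58 were not listed in the body, and of the 35 down in the body, 19 were not listed at the promoter. Down in both were 11 members: CG4822, Pgant2, GstE2, twz, CG9815, nvy, pain, CG6836, CG7720, CCAP-R and E(spl)m2-BFM. They make up 15.7% of the members down at the promoter and 31.4% of those down in the body, where the corresponding shares over all genes were 18.7% and 27.6%. Pgant2, which starts O-glycosylation, was at -0.93 at the promoter and -0.75 in the body. CCAP-R, a neuropeptide receptor, was at -1.50 and -1.01, and pain (painless, a TRP channel of nociception) at -0.74 and -0.80.

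One member, hbs (hibris, an immunoglobulin-family adhesion protein), was down at the promoter (-1.39) and listed as unchanged in the body (0.07). The opposite was seen for 5 members, ttk, tsh, Pld, ptc and Oatp74D, which were down in the body while their promoters were listed as unchanged, with values from -0.01 to 0.13. Over all 1781 transcripts listed in both regions, 35 were down at the promoter alone and 37 in the body alone. None of the members was down in one region and up in the other.

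BEAF RNAi called few members. At the promoter 2 of 168 listed members (1.19%) were down and 8 (4.76%) were up, against 2.20% down and 2.67% up of all 2137 listed genes. With this few calls the shares rest on single genes, and at an adjusted p under 0.01 the share up was 1.79%, against 1.40% of all listed genes. Ubc6, a ubiquitin-conjugating enzyme of the Rad6 type (chr3R:777039-778393), had the lowest adjusted p, at 1.37 (adjusted p = 4.155e-10), and was listed as unchanged in the other 3 comparisons (0.00, -0.02 and -0.04). Psc, a Polycomb group gene, was at 0.66 (adjusted p = 0.01663) and Ugt35A1, a UDP-glycosyltransferase, at 0.74 (adjusted p = 0.01141). The 2 members that fell were Nepl21, of the neprilysin family of peptidases, at -0.99 (adjusted p = 0.0001627), and Ent1, a nucleoside transporter, at -0.83 (adjusted p = 0.006585).

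In the gene body after BEAF RNAi 5 of 339 listed members (1.47%) were down and 6 (1.77%) were up, against 1.33% down and 0.416% up of all 4810 listed genes. Only 20 genes of any kind were up there, and 6 of them were members. The lowest adjusted p was that of rho (rhomboid, the protease that releases EGF receptor ligands, chr3L:1463819-1468483), at 1.26 (adjusted p = 1.261e-17), the highest value of any listed gene in that comparison. pyr (pyramus, a ligand of the FGF receptor Heartless) was at 0.58, so that of 3 members on the list of receptor tyrosine kinase genes 2 were up. The other one was kek1, which encodes an inhibitor of the EGF receptor, at 0.03 and listed as unchanged. Over all genes on that list 2 of 15 were up there, so rho and pyr were the only ones. 18w (18 wheeler, a Toll-family receptor) was at 0.62 (adjusted p = 8.791e-07). It lay 125818 bp from its nearest listed gene and was listed as unchanged in the other 3 comparisons (-0.06, -0.08 and -0.06). nuf (nuclear fallout, of recycling endosomes) was at 0.64. Among the members that fell, Pld was at -0.62 (adjusted p = 6.953e-16), CG32207 at -0.85 and Rgk3, a small GTPase gene, at -0.63.

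CG1090 was the one member called the same way in both regions after BEAF RNAi, at 0.90 at the promoter and 0.97 in the body. It was not listed after Pbro RNAi. The other called members listed in both regions were called in one and unchanged in the other.

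After both knockdowns 9 members (2.05%) were called, against 38 (0.687%) of all transcripts. At the promoter CG6836, CG7720 and rau, a Ras association domain gene, rose with BEAF RNAi (0.96, 0.66 and 0.59) and fell with Pbro RNAi (-2.60, -2.51 and -1.22). CG6836 and CG7720 were also down in the body after Pbro RNAi, at -1.33 and -0.96. Nepl21 was down at the promoter in both, at -0.99 and -0.78. In the gene body ttk (-0.45 and -1.25), Pld (-0.62 and -0.86) and Oatp74D (-0.87 and -0.79) were down in both, and ATP8B, which encodes a phospholipid flippase, rose with BEAF RNAi (0.87) and fell with Pbro RNAi (-1.90). pyr was up in the body after BEAF RNAi and down at the promoter after Pbro RNAi (-0.72). The LacZ libraries enter both sides of these pairs, so the values are given side by side with no test. Of the 70 members down at the promoter after Pbro RNAi, 28 were listed at the promoter after BEAF RNAi, where 24 were unchanged, 3 up and 1 down. Over all genes down at the promoter after Pbro RNAi and listed there, the counts were 130, 9 and 3.

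**Figure D4:**
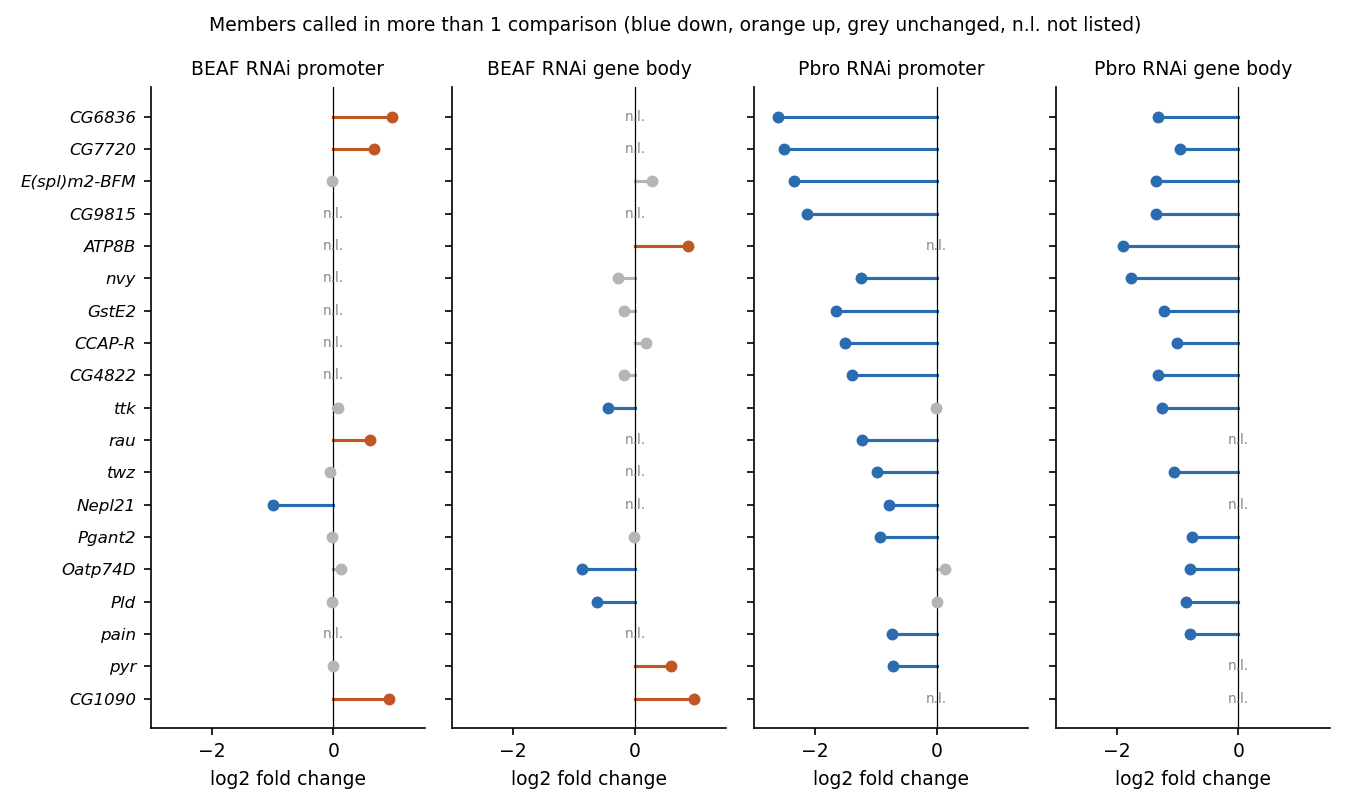
Log2 fold change over LacZ RNAi (x axis) of the 19 members called in more than 1 comparison (rows), with 1 panel for each comparison, lines from 0 to the value, blue for down, orange for up, grey for unchanged and n.l. for not listed. CG6836 and CG7720 are the 2 members called in 3 comparisons, up in the BEAF RNAi promoter panel and down in both Pbro RNAi panels.

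The nearest listed gene of a member that fell was often not listed in the same comparison. Of the 70 members down at the promoter after Pbro RNAi, this was so for 40. Where the nearest gene could be read, it was unchanged for 20, down for 10 and up for none. Of all genes listed there 13.2% were down, and of the members listed there 32.7%. The differences were not tested. Some of those 10 nearest genes were members themselves, and Ldh and Mdr65 were each counted as the nearest gene of the other. Pairs of members that fell together were Ldh and Mdr65 (13752 bp apart), rpr and skl, wg and Wnt4, and comm and comm2. The last encode proteins of the commissureless family, which controls axon crossing at the midline, and were at -1.13 and -1.99. In the gene body after Pbro RNAi none of the 35 nearest genes was down, 26 were unchanged and 9 were not listed. Of all genes listed there 5.45% were down. After BEAF RNAi no nearest gene of a called member was called in the same comparison. Several of those nearest genes were not listed there. Of all listed genes only 0.416% to 2.67% were called per direction and region. Ubc6, up at the promoter after BEAF RNAi, had Jhbp1 as its nearest listed gene, 12777 bp away, whose promoter was down after Pbro RNAi (-1.48).

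At the limits of the rule, CG5805 was the member closest to another listed gene (10030 bp) and CG6984 the first gene excluded (9934 bp). Both were listed as unchanged wherever listed, with values between -0.25 and 0.09. Dll, at 19782 bp, was the longest member, and fng (fringe, a modifier of Notch, 20016 bp) was the first isolated gene excluded for its length, listed only at the promoter after BEAF RNAi and unchanged (0.12). The members farthest from any listed gene were MED21 on 3LHet, Yeti on 2RHet and Spf30 on 3L, 1587602, 793678 and 311835 bp away. All 3 were unchanged wherever listed.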

How the data were processed

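Per the study's methods, PRO-seq reads went through the FastX toolkit and Bowtie (build dm3) and were counted near the promoter and over the body of nonoverlapping genes. Versions are not given in the sources used here. The log2 fold changes and the adjusted p-values are those the authors deposited, computed with DESeq2 for 2 knockdown against 2 LacZ libraries at a false discovery rate of 5%. Such columns were read as deposited, and neither depth nor reads per library were used. How regions were scaled is not stated, and a shift shared by all genes could have been lost.

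The 12 sheets were joined by transcript, and distances were taken between start-to-end spans in Python 3.11.15 with pandas 2.3.3 and numpy 2.4.6. The rule was tested on simulated spans. Members and lists were chosen with earlier results of these data known. Named genes were the 8 members with the lowest adjusted p per direction and comparison, those called in both regions or both knockdowns, up to 4 that were called from each list, and those at the limits of the rule. comm, Ndae1, Jhbp1, Mdr65, CG31523, mtgo and list members that were not called were named after their values were seen. Current symbols come from a Release 6 name table, which matched 416 members and renamed 114. A planned motif search was not run, since no promoter sequence was used here.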

Additional observations from a re-analysis of the deposited data

How the results depend on the processing

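No paired analysis was possible because the sheets carry no value per library, and for the same reason no replicate could be left out. Other distances, lengths, calls and neighbour rules were tried, and 60 of the shares under them stayed within the 95% binomial interval of the share first given while 20 did not. That interval treats genes as independent, which they are not. The settings also share genes, and a stricter call can only lower a share. The counts are therefore a description and no test. Medians stayed between -0.0764 and 0.0031. The fold change of each gene is the deposited one under every setting, so its sign could not change. Using all members as the denominator, members without an annotated coding neighbour, and only the main arms were chosen after seeing the data. For members down at the Pbro RNAi promoter the share was 19.8% with neighbours from the same comparison, 24.8% at 2-fold or more (9.60% of all listed genes), 10.5% for members listed in both regions, 16% of all members and 21.7% with no annotated neighbour. For members up there it was 0% at 20 kb and 0% with no annotated neighbour. In the Pbro RNAi gene body the share down was 6.25% at 2-fold (1.74% of all listed genes) and 7.99% of all members, and the share up was 0% at 2-fold and 0% with no annotated neighbour. At the BEAF RNAi promoter the share up was 1.79% at an adjusted p under 0.01, 0.595% at 2-fold and 1.83% of all members, and the share down was 0% at 2-fold and 0% with no annotated neighbour. In the BEAF RNAi gene body the share down was 0% at 2-fold and 0% with no annotated neighbour, and the share up was 0.295% at 2-fold and 5.71% (2 of 35) with no annotated neighbour. The cause of these shifts was not tested. Some settings leave fewer genes and others more, such as 581 against 214 at the Pbro RNAi promoter with neighbours from the same comparison. A gene with an adjusted p between 0.05 and 0.9 in a comparison does not enter the shares of genes listed there. It enters the distances and the shares of all members only where another comparison lists it.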

Other observations

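The following members were picked after their values were seen, because they were down, and stand for no gene group. At the promoter after Pbro RNAi exex, a homeodomain factor of motor neurons, was at -1.01, insc, an adaptor of asymmetric neuroblast division, at -1.07, DIP-kappa, an immunoglobulin-domain surface protein, at -1.39, and Fili, a leucine-rich repeat surface protein, at -1.13. rk, the receptor for the hormone bursicon, was at -2.66, and its nearest listed gene Cyp28a5 was also down, at -1.17. cas, a zinc finger factor of the neuroblast temporal series, was down in the gene body, at -1.66.

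Further members down at the promoter after Pbro RNAi were picked in the same way. Duox, a dual oxidase, was at -1.79, fj, a Golgi kinase that acts on Fat and Dachsous, at -1.35, Faa, an enzyme of tyrosine breakdown, at -0.75, and Orai, the store-operated calcium channel, at -1.12. Ret, a receptor tyrosine kinase, was at -1.23 in the gene body, and Rac2, a small GTPase, at -0.57. Pgant8, of the same enzyme family as Pgant2, was at -1.03 in the gene body, and it is the nearest listed gene of comm2, whose promoter was down.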
